A study of Rattus norvegicus with 12 samples.

Results

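The genes described here are 10 genes of the circadian clock. They comprise the activators Arntl (also named Bmal1), Clock, and Npas2, the repressors Per1, Per2, Per3, Cry1, and Cry2, and the output factors Dbp and Tef. They were chosen by name, and every RefSeq transcript carrying one of these names was taken. All 10 names were found, with 13 of the 18752 transcripts and 10 of the 17301 gene names that have values.

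The circadian clock is a transcriptional feedback loop that runs in nearly every cell. CLOCK or NPAS2 pairs with ARNTL, binds E-box sequences, and turns on the Per and Cry genes, whose proteins return to the nucleus and silence the activators, while nuclear receptors such as REV-ERB set the level of Arntl through a connected loop. DBP and TEF belong to the PAR bZIP family, bind D-box sequences, and carry the rhythm to output genes, and in cardiomyocytes the clock times metabolism, electrical activity, and contraction.

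Adult rat ventricular myocytes (ARVMs) from male Sprague Dawley rats were transduced with adenovirus at 50 MOI and collected 48 h later to ask which transcripts the nuclear receptor NR4A2 alters. Ad-h-NR4A2 carried the human NR4A2 coding sequence behind the CMV promoter, and Ad-GFP, which encodes green fluorescent protein, was the transduction control. Each group held 6 samples, and both groups carried the sample numbers 24 to 29, from separate experiments with cells of different rats. The age of the animals and the clock time of collection are not given in the sources used here. Cells of both groups had been plated on laminin in medium with fetal bovine serum, and virus was added when this was replaced by serum-free medium with albumin, insulin-transferrin-selenium, lipids, antibiotics, and butanedione monoxime, an inhibitor of contraction, which was then left unchanged. All samples were thus taken at the same interval after transduction, with no time course, so that a change in the level of a rhythmic transcript and a shift of its cycle cannot be told apart.

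Values are FPKM, the fragments on a transcript normalized by the authors to its length and to the depth of the sample. The sequencing depth recovered from the steps between low values was 18800000 to 28100000 fragments (median 23800000) in Ad-GFP and 21700000 to 27400000 (median 23750000) in Ad-h-NR4A2. Of several transcripts of a gene, the most abundant on average was used. The 10950 genes with a value above 0 in each of the 12 samples were tested with limma after taking log2(FPKM + 0.1). Fold changes below are on this scale unless called a ratio of mean FPKM, and the added 0.1 understates the change of low genes. A gene passed the test at an adjusted p below 0.05, and was called when the ratio of mean FPKM was also at least 1.5 in either direction.

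The labels were checked with Nr4a2, the transduced gene. Its FPKM was 0.626 to 1.40 (median 0.787) in Ad-GFP and 445 to 592 (median 533) in Ad-h-NR4A2. The groups lay far apart, and every sample fitted its label. The transgene is human, and its fragments enter the rat values only where the sequences are alike.

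All 10 clock genes were lower in Ad-h-NR4A2 than in Ad-GFP samples in the fitted means, and 8 of the 10 fell, that is, passed the test. Among all genes tested, 40.9% passed, 19.3% with higher and 21.7% with lower levels in Ad-h-NR4A2. Arntl, Npas2, Per2, and Dbp also passed the fold limit, so that 4 of 10 were called, all lower, against 15.2% of all genes called, 7.94% higher and 7.24% lower. The median log2 fold change was -0.40 over the 10 clock genes and -0.025 over all genes tested. Clock and Cry2 did not pass the test. Cry2 passed with a replicate block for the sample number (limma, adjusted p = 0.0146), under which 59.4% of all genes passed. The groups did not overlap for 4 of the 10 genes, namely Per1, Per2, Cry1, and Dbp, and 10.6% of all genes tested were lower in Ad-h-NR4A2 without overlap.

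Markers of cardiomyocytes moved in the same direction. Of 5 such markers, 4 passed the test, all lower in Ad-h-NR4A2, with a median log2 fold change of -0.56, and the summed FPKM of the list was 9850 to 11996 (median 11220) in Ad-GFP and 8240 to 9860 (median 9569) in Ad-h-NR4A2. Tnnt2, the cardiac troponin T gene and the most abundant of these, had a median FPKM of 7293 in Ad-GFP and 6206 in Ad-h-NR4A2 samples. Myh7 and Ryr2 were called lower. In bulk samples, fewer cells of a type and less RNA per cell cannot be told apart, and the part of this shift in the lower clock transcripts was not tested.

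The summed FPKM of fibroblast, smooth muscle, and endothelial markers was far lower than that of cardiomyocyte markers. Of 5 fibroblast markers tested, Col3a1 was called lower and the rest did not pass, Vim was the most abundant, Col1a2 was listed at 0 in every sample, which can be a failed estimate, and the sums ran from 9.04 to 30.1 FPKM (median 17.1) in Ad-GFP and from 5.80 to 26.4 (median 14.1) in Ad-h-NR4A2. Of 3 smooth muscle markers, Myh11 was called lower, Acta2 had the highest mean, and the sums had medians of 9.34 and 7.62 FPKM in Ad-GFP and Ad-h-NR4A2 samples. None of the 4 endothelial markers passed the test with limma, and the count was also 0 at an unadjusted p below 0.05. The endothelial sums had medians of 11.4 FPKM in Ad-GFP and 9.88 in Ad-h-NR4A2 samples, and Kdr was the most abundant. With a replicate block, Kdr passed with lower levels in Ad-h-NR4A2 (limma, adjusted p = 0.00409), as did the fibroblast markers Col1a1 (adjusted p = 0.00616), which was then called, and Pdgfra (adjusted p = 0.0101), all named after their values were seen.

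Of 3 macrophage markers tested, 2 were called higher. Csf1r, which encodes the receptor of macrophage colony-stimulating factor and was the most abundant of this list, had 5.48 to 17.1 FPKM in Ad-GFP samples and 36.8 to 43.4 in Ad-h-NR4A2 samples. Cd14 rose as well, whereas Cd68 had medians of 0.447 and 0.437 FPKM. Ptprc, the pan-leukocyte gene, stayed below 0.1 FPKM in every sample. The summed level of the list was 6.06 to 17.3 FPKM (median 10.4) in Ad-GFP and 38.9 to 45.4 (median 41.9) in Ad-h-NR4A2, and its part in the lower clock transcripts was not tested.

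**Figure D1:**
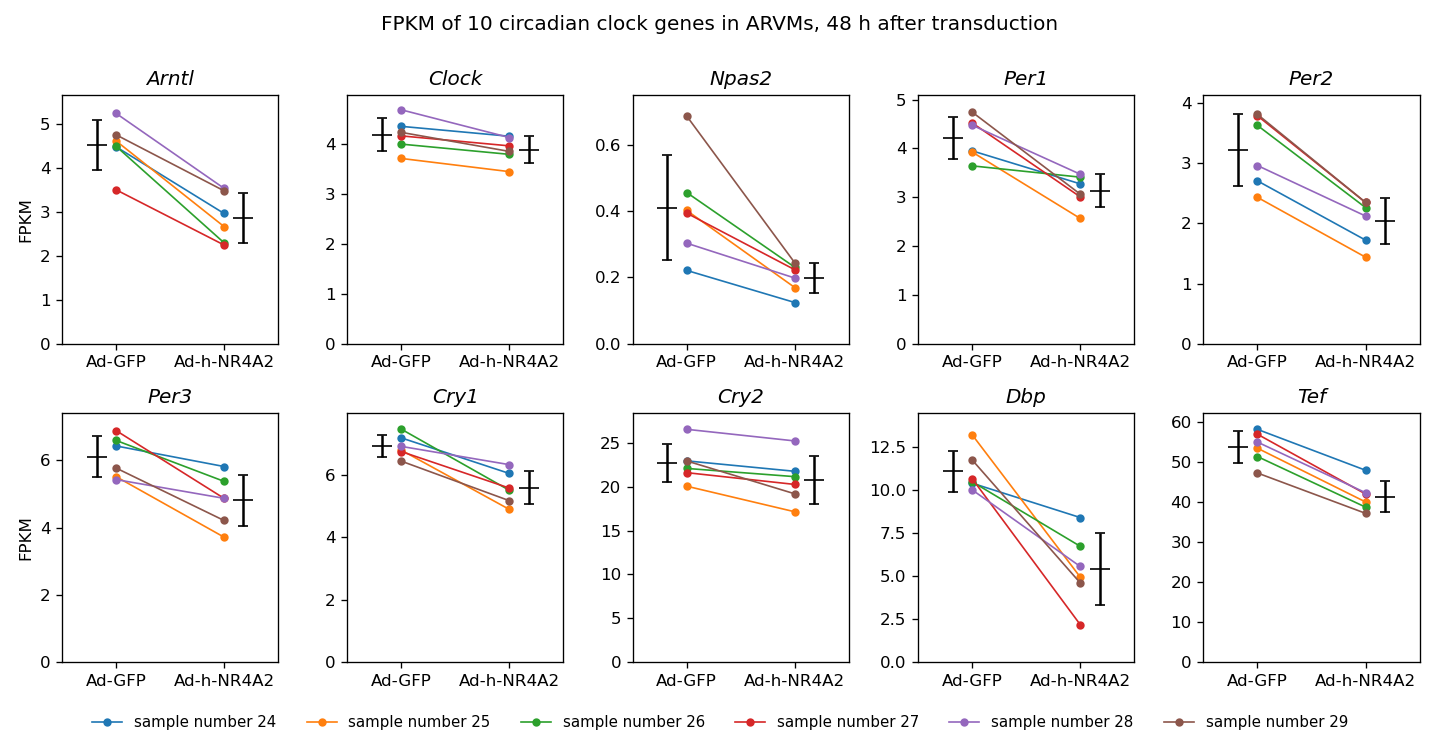
FPKM of the 10 clock genes (vertical axes, each from 0) in Ad-GFP and Ad-h-NR4A2 samples, with lines joining same-numbered samples and bars giving the mean and SD of 6 samples. Every line falls from Ad-GFP to Ad-h-NR4A2, steeply for Dbp (the most abundant of its transcripts is drawn) and least for Clock and Cry2.

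Among the activators, Arntl and Npas2 fell and Clock did not pass the test. Arntl encodes the partner that CLOCK and NPAS2 share, and its transcript lies at chr1:185007568-185105413 of Rn5. Arntl FPKM ran from 3.50 to 5.24 (median 4.56) in Ad-GFP and from 2.25 to 3.54 (median 2.81) in Ad-h-NR4A2. The groups touched at a single point, where the lowest Ad-GFP sample, number 27, lay just under the highest Ad-h-NR4A2 sample, number 28. The log2 fold change was -0.65 (limma, SE 0.13 and Benjamini-Hochberg adjusted p = 0.00138), a ratio of mean FPKM of 0.634.

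Clock, the DNA-binding partner of ARNTL, lies at chr14:34242961-34289468 of Rn5 with 2 transcripts. The abundant transcript had 3.71 to 4.69 FPKM (median 4.20) in Ad-GFP and 3.45 to 4.16 (median 3.91) in Ad-h-NR4A2, while the other did not exceed 0.0728 FPKM in any sample. The groups overlapped, with 4 of 6 Ad-GFP samples above the highest Ad-h-NR4A2 sample, and the log2 fold change was -0.10 (limma, SE 0.076 and adjusted p = 0.301). Relative to Clock, Arntl was at a log2 ratio of 0.10 ± 0.19 in Ad-GFP and -0.45 ± 0.26 in Ad-h-NR4A2 (SD, n = 6 each), given as a description because this ratio was chosen after the values were seen.

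Npas2, which can stand in for CLOCK, was the scarcest of the 10 transcripts and lies at chr9:45590021-45769792 of Rn5. Its FPKM was 0.221 to 0.686 (median 0.398) in Ad-GFP and 0.124 to 0.244 (median 0.210) in Ad-h-NR4A2, which corresponds to 20 to 79 and 11 to 23 fragments. The Ad-GFP sample numbered 24 lay within the Ad-h-NR4A2 range, and the other Ad-GFP samples lay above it. Npas2 fell with a log2 fold change of -0.73 (limma, SE 0.20 and adjusted p = 0.00841) and a ratio of mean FPKM of 0.483. At so low a level the log2 fold change depends on the pseudocount, and it was -0.23 with a pseudocount of 1 and -0.96 with 0.01 (limma, adjusted p = 0.0124 and 0.00907, and 0.000886 to 0.0201 over all alternatives). Counting error is large at so few fragments, and with a required mean of 1 FPKM the gene was not tested.

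The repressors fell with the exception of Cry2. Per2, whose protein joins CRY in the repressor complex, had the largest fold change of this group and lies at chr9:98231204-98273371 of Rn5. Per2 FPKM was 2.43 to 3.81 (median 3.30) in Ad-GFP and 1.44 to 2.35 (median 2.19) in Ad-h-NR4A2. No Ad-h-NR4A2 sample reached the lowest Ad-GFP sample. The log2 fold change of Per2 was -0.63 (limma, SE 0.15 and adjusted p = 0.00399) and the ratio of mean FPKM was 0.633. Without Ad-h-NR4A2 replicate 25, the lowest of all, the log2 fold change was -0.54 (limma, adjusted p = 0.00821) and the ratio fell short of the fold limit. Over all alternatives the adjusted p of Per2 ran from 2.92e-05 to 0.0114.

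Per1, a period gene that responds quickly to signals that reset the clock, lies at chr10:55430184-55439080 of Rn5. It had 3.64 to 4.74 FPKM (median 4.21) in Ad-GFP and 2.57 to 3.47 (median 3.17) in Ad-h-NR4A2. The groups did not overlap, and Per1 fell with a log2 fold change of -0.42 (limma, SE 0.094 and adjusted p = 0.00313), short of the fold limit. Per3, which is dispensable for rhythm in most tissues and lies at chr5:171665221-171700125 of Rn5, had 5.43 to 6.88 FPKM (median 6.10) in Ad-GFP and 3.71 to 5.81 (median 4.87) in Ad-h-NR4A2. The groups overlapped because Ad-h-NR4A2 sample 24 lay within the Ad-GFP range. The log2 fold change of Per3 was -0.35 (limma, SE 0.11 and adjusted p = 0.0205).

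The cryptochromes, which block the activators directly, differed in their values. Cry1, at chr7:24683890-24784329 of Rn5, had 6.44 to 7.46 FPKM (median 6.85) in Ad-GFP and 4.89 to 6.33 (median 5.54) in Ad-h-NR4A2. The groups did not overlap, and Cry1 fell with a log2 fold change of -0.31 (limma, SE 0.073 and adjusted p = 0.00412). Cry2, at chr3:88018203-88048159 of Rn5, had 20.1 to 26.6 FPKM (median 22.5) in Ad-GFP and 17.1 to 25.2 (median 20.7) in Ad-h-NR4A2. The groups overlapped, with 2 Ad-h-NR4A2 samples below and 1 Ad-GFP sample above the range of the other group, and the log2 fold change of Cry2 was -0.13 (limma, SE 0.087 and adjusted p = 0.254). With a replicate block for the sample number, Cry2 passed the test (limma, adjusted p = 0.0146), still short of the fold limit, while Clock did not (adjusted p = 0.112). The block raised passing among all genes tested as well, to 59.4%, with 27.1% higher and 32.3% lower in Ad-h-NR4A2. Over all alternatives the adjusted p of Cry2 ran from 0.0146 to 0.488, and the block was the only one of them under which it passed. Whether Cry1 and Cry2 differed in their response was not tested.

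Both PAR bZIP outputs fell. Dbp, a direct target of the activators, lies at chr1:102766728-102771677 of Rn5 with 3 transcripts that share most of their sequence, so that their single values are estimates of how fragments were divided. Summed over the 3 transcripts, Dbp FPKM was 17.3 to 24.5 (median 19.5) in Ad-GFP and 9.33 to 15.7 (median 12.6) in Ad-h-NR4A2. All Ad-h-NR4A2 samples lay below all Ad-GFP samples. The summed log2 fold change was -0.75 (limma, SE 0.13 and adjusted p = 0.000500), a ratio of mean FPKM of 0.599.

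The most abundant Dbp transcript, by which the gene entered the counts above, ran from 9.99 to 13.2 FPKM (median 10.6) in Ad-GFP and from 2.18 to 8.39 (median 5.24) in Ad-h-NR4A2. Its log2 fold change of -1.12 (limma, SE 0.24 and adjusted p = 0.00206) was the largest of the 10 genes on the log2(FPKM + 0.1) scale, whereas its ratio of mean FPKM, 0.488, was close to that of Npas2, 0.483, and it spread more over the samples than the sum did. Sample 27 of Ad-h-NR4A2 had 2.18 FPKM on this transcript and 2.06 on another that was near 0 in all Ad-GFP samples. The remaining Dbp transcript had medians of 9.25 and 6.87 FPKM in Ad-GFP and Ad-h-NR4A2 samples, with overlapping groups.

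Tef, the other output factor, was the most abundant of the 10 transcripts and lies at chr7:123019282-123034386 of Rn5. Its FPKM was 47.3 to 58.2 (median 54.3) in Ad-GFP and 37.2 to 48.0 (median 41.1) in Ad-h-NR4A2. Only Ad-GFP sample 29 and Ad-h-NR4A2 sample 24 overlapped. The log2 fold change of Tef was -0.38 (limma, SE 0.066 and adjusted p = 0.000462), the smallest adjusted p of the 10 genes, at a ratio of mean FPKM of 0.771 that is short of the fold limit.

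In Ad-GFP samples, the order of the mean FPKM levels was Tef, Cry2, Dbp summed over its transcripts, Cry1, Per3, Arntl, Per1, Clock, Per2, and Npas2. Tef stood at 53.7 ± 3.98 (SD, n = 6) and Npas2 at 0.410 ± 0.159 (SD, n = 6). The sample ranges of neighbours overlapped between Cry2 and Dbp, between Cry1 and Per3, and from Arntl through Per1 and Clock to Per2. Within single samples Clock was above Per2 in 6 of 6, Cry1 above Per3 and Arntl above Per1 in 5 of 6, Cry2 above Dbp in 4 of 6, and Per1 above Clock in 3 of 6, and the order was not tested. In Ad-h-NR4A2 samples Arntl stood below Clock and Per1 in mean level, at 2.86 ± 0.563 (SD, n = 6) against 3.89 ± 0.261 and 3.13 ± 0.333, and Dbp no longer overlapped Cry2. From Cry1 down to Per2 the range of each gene overlapped that of the next.

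The same-numbered pairs showed the lower levels one by one. In all 6 pairs the Ad-h-NR4A2 sample had the lower value of each of the 10 clock genes, which held for 29.1% of all genes tested. The median log2 ratio of the 10 genes in a pair ranged from -0.27 in pair 24 to -0.58 in pair 25. Per2 was nearly constant, from -0.72 to -0.46 with an SD of 0.090 over the 6 pairs, and Tef ran from -0.44 to -0.28 with an SD of 0.058. The pairs of Clock ranged from -0.18 to -0.066 and those of Cry2 from -0.26 to -0.062. Wider spreads were found for Per1, from -0.61 to -0.092, with pair 26 the smallest, for Npas2, from -1.19 to -0.44, and for the most abundant Dbp transcript, from -2.24 to -0.30. Arntl ran from -0.94 in pair 26 to -0.44 in pair 29.

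**Figure D2:**
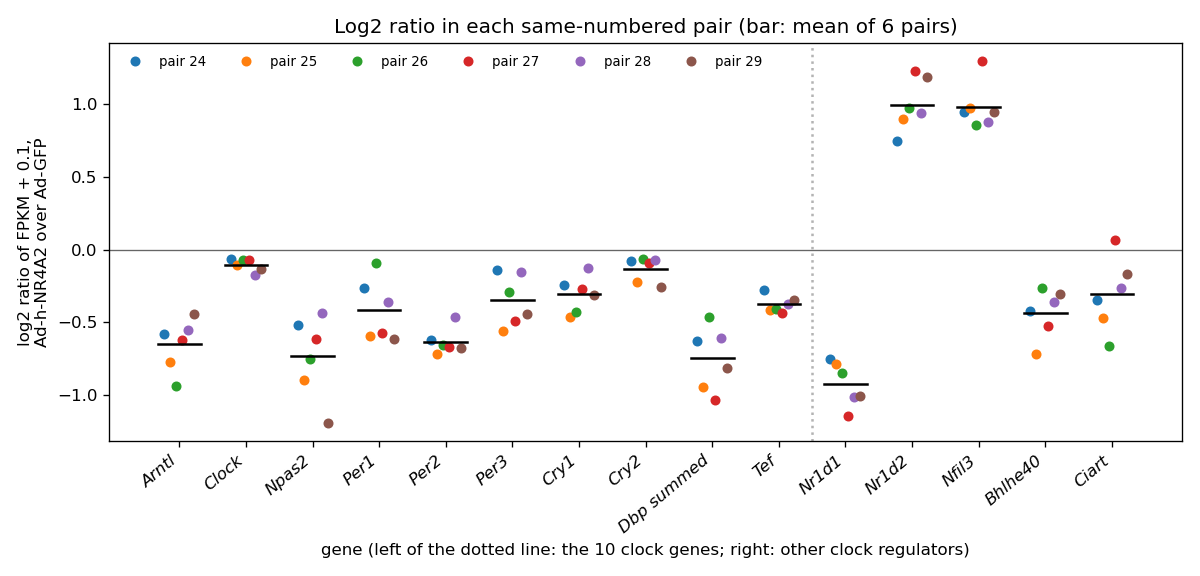
Log2 ratio of FPKM + 0.1 of Ad-h-NR4A2 over Ad-GFP (vertical axis) in each same-numbered pair for the 10 clock genes, with Dbp summed over its transcripts, and for 5 other clock regulators. Points are pairs and bars are means of 6 pairs. All points of the 10 clock genes lie below 0, and those of Nr1d2 and Nfil3 lie above it.

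Levels of some clock genes also differed between sample numbers in the same way in both groups. For Per2, the Ad-GFP and Ad-h-NR4A2 values correlated over the 6 numbers with r = 0.95 (two-sided exact permutation p = 0.00139, 0.0139 after Benjamini-Hochberg adjustment over the 10 genes) and rho = 1 (exact permutation p = 0.00278, adjusted 0.0278). Without the 2 numbers farthest from the median, r was 0.98. Numbers 24 and 25 were the lowest for Per2 in both groups.

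For Clock, r was 0.92 (exact permutation p = 0.0125, adjusted 0.0486) and rho 0.89 (exact permutation p = 0.0333, adjusted 0.0972), and r was 0.83 without the 2 farthest numbers. For Tef, r was 0.89 (exact permutation p = 0.0194, adjusted 0.0486) and rho 0.94 (exact permutation p = 0.0167, adjusted 0.0833), with r = 0.92 without the 2 farthest. For Arntl, r was 0.77 (exact permutation p = 0.0153, adjusted 0.0486) and rho 0.83 (exact permutation p = 0.0583, adjusted 0.0972), with r = 0.70 without them. Of these genes, Per2 alone passed by both measures. The share of all genes that would pass these permutation tests was not computed. Over all genes tested the median r was 0.65, so that such a relation is not particular to clock genes.

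For Cry2, r was 0.91 (exact permutation p = 0.0306, adjusted 0.0611) and rho 0.83 (exact permutation p = 0.0583, adjusted 0.0972), but r was -0.028 without the 2 farthest numbers, so that the relation rested on those samples. For Npas2, r was 0.82 (exact permutation p = 0.0486, adjusted 0.0810) and rho 0.83 (exact permutation p = 0.0583, adjusted 0.0972), and r was 0.32 without them. The remaining clock genes did not pass before adjustment. For Per3, r was 0.63 (exact permutation p = 0.206, adjusted 0.294) and rho 0.31 (exact permutation p = 0.564, adjusted 0.627), and r was 0.96 without the 2 farthest numbers.

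For Cry1, r was 0.40 (exact permutation p = 0.428, adjusted 0.535) and rho 0.37 (exact permutation p = 0.497, adjusted 0.622), and for Per1, r was -0.011 (exact permutation p = 0.979, also when adjusted) and rho -0.14 (exact permutation p = 0.803, also when adjusted), with r = 0.57 and 0.48 without the 2 farthest numbers. The most abundant Dbp transcript had r = -0.15 (exact permutation p = 0.721, adjusted 0.801) and rho = -0.60 (exact permutation p = 0.242, adjusted 0.345), and r was -0.48 without them. Summed over its transcripts and outside the 10 adjusted values, Dbp had r = 0.68 (exact permutation p = 0.131) and rho = 0.66 (exact permutation p = 0.175), with r = 0.63 without them. The median r over the 10 genes was 0.80, beside 0.65 over all genes tested.

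The clock genes were also compared with each other over the 12 samples after each group mean was subtracted. Of 45 gene pairs, 32 had a positive r, with a median of 0.26. The highest was that of Clock and Cry2, with r = 0.87, and the lowest that of Npas2 and Tef, with r = -0.82. These values are descriptions over n = 12 samples, in which both genes of a pair were measured in the same libraries and each sample number occurs in both groups.

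The regulators around the core loop moved in both directions. Of the listed regulators, 15 were found by name and 13 were tested, and the others were not analysed here. Nr1d2 and Nfil3 were called higher and Nr1d1 was called lower. In all, 3 rose and 4 fell, where 40.9% of all genes passed, with a median log2 fold change of 0.0046 over the 13 genes. With a replicate block for the sample number, 4 rose and 5 fell, where 59.4% of all genes passed, and the genes gained, Csnk1d (limma, adjusted p = 0.010) and Ciart (adjusted p = 0.0124), were named after their values were seen.

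Nr1d1 and Nr1d2 encode REV-ERBα and REV-ERBβ, which repress Arntl through the same DNA element, and they moved in opposite directions. Nr1d1 FPKM was 11.7 to 15.3 (median 14.6) in Ad-GFP and 6.47 to 8.33 (median 7.43) in Ad-h-NR4A2. Nr1d2 FPKM was 39.3 to 53.2 (median 46.7) in Ad-GFP and 87.6 to 106 (median 89.7) in Ad-h-NR4A2. Neither gene had overlapping groups. Nr1d1 fell with a log2 fold change of -0.93 (limma, SE 0.083 and adjusted p = 1.46e-06) and Nr1d2 rose with 1.00 (SE 0.071 and adjusted p = 1.78e-07), each in 6 of 6 pairs.

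The log2 ratio of Nr1d2 over Nr1d1 was 1.40 to 2.04 in Ad-GFP and 3.38 to 4.01 in Ad-h-NR4A2 samples, a description of a ratio chosen after the values were seen. Nr1d1 overlaps Thra, the thyroid hormone receptor gene on the opposite strand, in the files, and whether the counting used the strand is not given in the sources used here. Thra also fell (log2 fold change -0.52, limma adjusted p = 0.00528), so that the value of Nr1d1 is uncertain to the extent that fragments were shared.

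Nfil3 encodes a bZIP repressor that competes with DBP and TEF for D-boxes. Its FPKM was 14.6 to 24.3 (median 20.2) in Ad-GFP and 30.0 to 47.0 (median 38.4) in Ad-h-NR4A2. The groups did not overlap, and Nfil3 rose with a log2 fold change of 0.98 (limma, SE 0.14 and adjusted p = 8.90e-05) while both of its competitors fell. Bhlhe40, which encodes the E-box repressor DEC1, fell with a ratio short of the fold limit (log2 fold change -0.43, limma adjusted p = 0.000336), from a median FPKM of 31.1 to 23.0. The kinase genes Gsk3b and Csnk1d, whose products phosphorylate clock proteins, had log2 fold changes of 0.014 and 0.12 (adjusted p = 0.926 and 0.215 from limma).

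Among 14 genes with a known daily rhythm in the heart or in other tissues, 3 rose and 4 fell, where 40.9% of all genes passed. Their median log2 fold change was -0.19. Those called were Ucp3 and Tsc22d3, higher, and Klf15, lower. Klf15, a transcription factor of nutrient metabolism driven by the clock in the heart, had 18.8 to 26.6 FPKM (median 23.4) in Ad-GFP and 8.92 to 15.7 (median 10.9) in Ad-h-NR4A2. The groups did not overlap, and the log2 fold change was -1.05 (limma, SE 0.13 and adjusted p = 2.64e-05). Ucp3, the mitochondrial uncoupling protein gene, rose with a log2 fold change of 1.75 (limma, SE 0.29 and adjusted p = 0.000329), with pairs from 0.51 to 2.82.

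Tsc22d3, a glucocorticoid-induced gene also named Gilz, rose with a log2 fold change of 1.32 (limma, SE 0.070 and adjusted p = 1.22e-08). Its transcript is placed in the files on another chromosome than RefSeq now gives, so that its value is uncertain. Of the most abundant genes not called, Nampt rose and Alas1 fell, both short of the fold limit (log2 fold changes 0.45 and -0.25, limma adjusted p = 0.00224 and 0.00653), and Pdk4 had -0.32 (adjusted p = 0.0700). With the replicate block, under which 59.4% of all genes passed, 3 rose and 9 fell, and the genes gained, Klf9, Klf10, Dgat2, Usp2, and Pdk4, had adjusted p from 0.00164 to 0.0464 with limma and were named after their values were seen.

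Glucocorticoid and CREB signals reset Per1 in many cells, and 9 of 11 listed genes of these responses were tested, with Icer and Crtc3 not analysed here. Of these, 2 rose and 2 fell, with a median log2 fold change of -0.043, where 40.9% of all genes passed, 19.3% higher and 21.7% lower. Sgk1, a kinase gene that glucocorticoids induce, was called higher, with 9.32 to 13.4 FPKM (median 11.5) in Ad-GFP and 18.3 to 46.6 (median 33.6) in Ad-h-NR4A2. Its groups did not overlap (log2 fold change 1.45, SE 0.21, limma adjusted p = 8.56e-05). Fkbp5 and Zbtb16, also induced by glucocorticoids and named after their values were seen, did not pass (log2 fold changes -0.047 and -0.043, limma adjusted p = 0.791 and 0.756). Nr3c1, the glucocorticoid receptor gene, fell with a ratio short of the fold limit, as did Crtc2, a CREB coactivator gene (log2 fold changes -0.30 and -0.23, limma adjusted p = 0.00186 and 0.0349). Crtc1 had a log2 fold change of -0.33 (limma, adjusted p = 0.0760) and passed with the replicate block (adjusted p = 0.000290). Sik1 rose with a ratio short of the fold limit (log2 fold change 0.45, limma adjusted p = 0.0160). Creb1 and Crem did not pass (log2 fold changes 0.17 and -0.019, limma adjusted p = 0.388 and 0.922). Sik1, Creb1, and Crem were named after their values were seen.

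Over the 12 samples, the genes most like the abundant Dbp transcript among 8977 genes with a mean of at least 1 FPKM were Rab30 (r = 0.95), Pard3b (r = 0.95), Ing1 (r = 0.94), Pde8a (r = 0.93), and Cdc42ep2 (r = 0.93). For Dbp summed over its transcripts, a choice made after the values were seen, they were Tpst2, Bloc1s5, Asb14, Efhd1, and Ftl1, with r from 0.96 to 0.97. Ftl1 has near-identical copies elsewhere in the genome, so that its value is uncertain. These likenesses include the difference between the groups, which all of these genes shared in direction.

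RefSeq promoter windows of build GRCr8, from 250 bases before to 50 bases after the annotated start, were held for 9 of the 10 clock genes, and Cry1 had none. They were searched on both strands for the E-box CACGTG, its variant CACGTT, the D-boxes TTATGTAA and TTACGTAA, the NR4A monomer element AAAGGTCA with its core AGGTCA, and the cAMP element TGACGTCA with its shorter form TGACG. The core lies within the monomer element and the shorter form within the cAMP element, so that these matches overlap. Of 33469 RefSeq windows, 6.42% held the E-box, 4.83% the variant, 1.01% a D-box, 1.43% the monomer element, 16.2% its core, 1.83% the cAMP element, and 21.2% its shorter form.

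The E-box was found in Tef, the variant in Per2 and Cry2, a D-box in Per2, the core AGGTCA in Arntl, and the shorter cAMP form in Per2 and Per3. Neither the full monomer element nor the full cAMP element was found in any of the 9 genes, and the windows of Clock, Npas2, Per1, and Dbp held no match. Sequence outside these windows was not searched, so that a window without a match does not show that the gene lacks the element. A match describes letters in a window and does not show that a factor binds there. The core AGGTCA alone does not tell which nuclear receptor, NR4A2, REV-ERB, or another, could bind it.

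The 250 bases before the start are shown for 3 genes that fell and hold a match, as examples of the sequence next to a repressor, an activator, and an output gene. Capitals mark the D-box at position -192 and the E-box variant at -62 in Per2, the core AGGTCA at -15 in Arntl, and the E-box at -198 in Tef, where -1 is the base before the start and positions give the first base of the match. Per2 lies at chr9:99496994-99497243 of GRCr8 on the minus strand, Arntl at chr1:176766078-176766327 on the plus strand, and Tef at chr7:115206577-115206826 on the plus strand, and each is written in the direction of its gene.
Per2: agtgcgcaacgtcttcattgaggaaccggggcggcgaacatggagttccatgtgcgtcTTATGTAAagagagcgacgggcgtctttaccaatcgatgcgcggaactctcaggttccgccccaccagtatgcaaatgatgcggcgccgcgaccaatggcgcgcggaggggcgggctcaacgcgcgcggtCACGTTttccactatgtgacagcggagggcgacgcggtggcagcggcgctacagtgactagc
Arntl: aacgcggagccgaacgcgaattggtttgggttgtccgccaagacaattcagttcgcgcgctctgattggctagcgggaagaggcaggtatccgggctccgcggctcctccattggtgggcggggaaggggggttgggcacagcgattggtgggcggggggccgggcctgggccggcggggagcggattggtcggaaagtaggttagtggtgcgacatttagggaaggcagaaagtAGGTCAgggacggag
Tef: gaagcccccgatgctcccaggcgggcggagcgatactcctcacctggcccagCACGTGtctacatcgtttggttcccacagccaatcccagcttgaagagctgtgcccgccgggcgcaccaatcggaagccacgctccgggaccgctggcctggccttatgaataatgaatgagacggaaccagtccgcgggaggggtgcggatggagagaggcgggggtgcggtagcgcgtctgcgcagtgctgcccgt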

How the data were processed

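FPKM were calculated and deposited by the authors, who prepared stranded mRNA libraries, sequenced the 12 samples in a single pool, used STAR for alignment to Rn5, and quantified RefSeq transcripts with Cufflinks. Groups and numbers were taken from the sample labels, which do not say what a number stands for. The lmFit and trended eBayes functions of limma 3.58.1 (R 4.3.3) were applied to log2(FPKM + 0.1), unpaired and two-sided, with Benjamini-Hochberg adjustment over the 10950 genes tested, and correlations were tested by exact permutation. The fit was tested on simulated data. Python 3.11.15 with SciPy 1.17.1 and pandas 2.3.3 gave the other values, and Matplotlib 3.10.9 the plots.

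Depth was recovered from values of at most 6 fragments on transcripts of at least 800 nucleotides, with 165 nucleotides taken off the length, of which 99.2% to 99.9% per sample came out whole within 0.05. Fragment numbers cover counting error only.

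Same-numbered samples deviated together, with a correlation of 0.347 to 0.623 in the 6 pairs (mean 0.505), and 12 of 12 samples correlated best with their own number, so that the numbers were taken to pair the samples and the replicate block was fitted as an alternative. Other alternatives changed the pseudocount, the filter on low values, the scaling, the transcript rule, the trend, and the fold limit, or left out each sample in turn. Named were the 10 clock genes, Nr4a2, every called gene of the lists and the 3 most abundant genes not called in each, the most abundant marker of each cell type, and the 5 genes most like the clock gene with the largest change. Genes and lists were chosen with earlier results of these data known.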

Additional observations from a re-analysis of the deposited data

Results flagged for a closer look

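For the most abundant transcripts of the 10 clock genes, no value stood apart from the other samples of its group. A scarcer Dbp transcript had 2.06 FPKM in Ad-h-NR4A2 sample 27, against 0.530 in sample 28 and values near 0 in the others. Gaps were examined in 124 groups of 6 samples, for 63 genes, and 3 exceeded Dixon's critical value, whereas chance alone gives about 1 in 20 groups. Ad-GFP sample 28 had 953 FPKM of Myh6, against 1137 to 1229 in the other Ad-GFP samples, a gap of 0.666 of the range of the group. Sample 24 was high in Acta2, the smooth muscle actin gene, in both groups. It had 12.7 FPKM in Ad-GFP, against 1.76 to 4.90 in the others (gap 0.714), and 11.0 FPKM in Ad-h-NR4A2, against 1.82 to 5.06 (gap 0.647). Without both samples numbered 24, an alternative chosen after seeing the data, 4 of the 10 clock genes were called.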

How the results depend on the processing

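Over 22 alternatives, among them the one without both samples numbered 24 that was chosen after seeing the data, the number of genes called was 1252 to 1825 (1541 to 1769 when each sample was left out in turn), and 3 or 4 of the 10 clock genes were called. The count was 3 with a required mean of 1 FPKM, where Npas2 was not tested, and without Ad-h-NR4A2 replicate 25, where Per2 missed the fold limit. All 219 fold changes of the clock genes under these alternatives were negative, and the 8 genes that fell passed the test under each alternative in which they were tested. The fold limit moved the counts most. With no fold limit, 4484 genes passed, among them 8 clock genes, 7 clock regulators, 7 rhythmic genes, and 4 glucocorticoid and CREB genes. With a limit of 2, 803 genes were called, among them 2 clock genes and 0 clock regulators, of which 7 had an unadjusted limma p below 0.05 but ratios short of 2.

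With a replicate block for the sample number, 1825 genes were called, and apart from the genes named with the replicate block in the text, markers included, it changed neither passing nor calling of a named gene. Timeless, a clock regulator named after its values were seen, had a ratio of 1.49 and was called under 5 alternatives. Among genes counted as passing, Csnk1e passed in 17 of the 22 alternatives, Por in 16, Crtc2 in 13, and Fbxw11 in 11, of which all but Crtc2 were also named after their values were seen. The log2 fold change of Dbp ran from -1.29, without both samples numbered 24, to -0.75, with its transcripts summed. The median same-number correlation ran from 0.710 to 0.800. Depth limits Npas2, with 11 to 79 fragments per sample. The lack of a time course, the absence of untransduced cells from the samples analysed here, and markers that moved with the groups limit what the lower levels of the clock genes can be assigned to.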
